A study of Mus musculus with 549 samples.

Results

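The 44 genes described here encode the contractile apparatus of skeletal muscle together with the calcium-handling and energy proteins that serve it, and they were followed through cartilage, bone and lymph node of mouse hind limbs. They were taken by symbol from a list that used no measured value as a rule, but the list and the tests were chosen with earlier results of these data known. All 44 were present among the 23385 genes of every table. The mice were male C57BL/6J, aged 26 weeks when unloaded, 27 weeks after 1 week of loading and 28 weeks after 2 weeks. Parathyroid hormone, PTH(1-34), or saline vehicle was injected for 8 weeks from 18 weeks of age. The left tibia was then compressed cyclically to 9 N while the right limb served as the contralateral control, and alendronate, a bisphosphonate that blocks bone resorption, or vehicle was given during the loading weeks. PTH mice received PTH and then vehicle, alendronate mice vehicle and then alendronate, PTH-alendronate mice both drugs, and vehicle mice vehicle throughout; unloaded mice had received PTH or vehicle alone. Tibial cartilage, metaphyseal cortical and cancellous bone cleared of marrow, and inguinal lymph node were each sequenced by bulk 3′ RNA-seq without pooling.

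A muscle fibre shortens when myosin heads of the thick filament pull on actin of the thin filament inside the sarcomere, the repeating unit bounded by Z discs. Calcium released through the ryanodine receptor binds troponin on the thin filament to start each contraction, and the SERCA pump returns it to the sarcoplasmic reticulum. Fast and slow fibres build this machine from different myosin, light chain and troponin genes, so the fibre types differ in their transcripts. None of the sampled tissues is skeletal muscle, and muscle attaches to the tibia close to both the joint and the metaphysis.

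The counted libraries numbered 505 of the 549 samples described, and the other 44 had no column and were not analysed here. Their depth ran between 3630 and 3557793 reads with a median of 1551090, and 28 libraries held fewer than 100000 reads. Cartilage and lymphocyte markers were highest in their own tissue: 9 cartilage matrix genes held a median of 1.17% of reads in cartilage, 0.0379% in cortical bone, 0.0197% in cancellous bone and 0.00188% in lymph node. The 8 osteoblast and osteocyte genes held 0.502% in cortical bone, 0.281% in cartilage, 0.268% in cancellous bone and 0.000303% in lymph node, so these genes did not set cancellous bone apart from cartilage. The 9 lymphocyte genes held 0.246% in lymph node and between 0.0114% and 0.015% in the other tissues. These medians and the shares that follow are over libraries of at least 100000 reads.

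The genes sit on 16 chromosomes, and 8 of them lie on chromosome 7. The start-site sequences of 5 members that responded in cartilage are shown here beside that of Tnnc1, a slow-fibre member that was not called. Tnnc1 was at 0 in 58 of 143 cartilage libraries of at least 100000 reads, and the part of low counts was not tested. RefSeq gave 41 windows of 300 bases, 250 before and 50 after a start site, for 34 of the members and 32851 windows for 27025 genes in all. Each line gives 150 bases of such a window on the gene's own strand, build GRCm38.p6: Myh4 at chr11:67237662-67237811 (+), Myh1 at chr11:67199952-67200101 (+), Acta1 at chr8:123894776-123894925 (-), Atp2a1 at chr7:126463074-126463223 (-), Mylpf at chr7:127211458-127211607 (+) and Tnnc1 at chr14:31208162-31208311 (+). Capitals mark matches on either strand to the E-box CANNTG, which reads alike on both strands, to TATAAA, to the MCAT element CATTCC and to the CArG and MEF2 elements.
Myh4: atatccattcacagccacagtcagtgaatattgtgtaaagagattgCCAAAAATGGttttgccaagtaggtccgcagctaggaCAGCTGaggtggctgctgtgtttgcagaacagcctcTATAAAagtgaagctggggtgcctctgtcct
Myh1: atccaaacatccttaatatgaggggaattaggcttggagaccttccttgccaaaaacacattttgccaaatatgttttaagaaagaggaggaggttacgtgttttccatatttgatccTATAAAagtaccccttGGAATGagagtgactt
Acta1: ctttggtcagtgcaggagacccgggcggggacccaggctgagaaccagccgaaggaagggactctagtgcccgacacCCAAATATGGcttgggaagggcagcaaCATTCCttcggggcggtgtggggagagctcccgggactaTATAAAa
Atp2a1: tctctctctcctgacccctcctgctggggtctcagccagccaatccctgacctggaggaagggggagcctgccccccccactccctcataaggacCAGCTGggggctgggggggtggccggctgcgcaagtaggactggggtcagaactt
Mylpf: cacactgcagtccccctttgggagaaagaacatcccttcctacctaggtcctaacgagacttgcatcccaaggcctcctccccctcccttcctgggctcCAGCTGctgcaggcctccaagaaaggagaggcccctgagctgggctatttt
Tnnc1: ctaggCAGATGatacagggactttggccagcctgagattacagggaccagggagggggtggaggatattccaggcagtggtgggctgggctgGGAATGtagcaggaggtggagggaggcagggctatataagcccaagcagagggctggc
The E-box was found in 82.9% of the members' windows and in 72.3% of all windows, and at least 2 E-boxes were found in 65.9% and 39.6%. The MCAT element was present in 26.8% of the members' windows and 14.7% of all, TATAAA in 17.1% and 13.6%, the MEF2 element in 17.1% and 3.19%, and the CArG element in 12.2% and 1.63%. TATAAA and the MEF2 element can share bases. Windows of the same gene can overlap, so a match can count more than once, as the CArG match of Ldb3 did. The slow troponin C gene Tnnc1 held an E-box and an MCAT match as well. These are matches of letters only.

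The muscle genes were measured most heavily in cortical bone. Together the 44 genes took a median of 2.88% of all reads in 106 cortical libraries, 0.283% in 143 cartilage libraries, 0.168% in 94 cancellous libraries and 0.0322% in 134 lymph node libraries. Single libraries ranged widely around these medians, between 0.0753% and 20.4% in cortical bone, 0.0206% and 9.43% in cartilage, 0.0124% and 15.7% in cancellous bone, and 0.0187% and 0.138% in lymph node. The share passed 1% in 85 cortical, 31 cartilage and 26 cancellous libraries and in 0 lymph node libraries. In bulk tissue, more muscle cells and more RNA per muscle cell cannot be told apart. Which cells these reads came from was not identified. The shares come from the recovered reads of each library and are set across separate tables. Cartilage was kept in RNAlater while bone and lymph node were snap frozen, so cartilage and its handling cannot be told apart in the order of tissues.

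**Figure D1:**
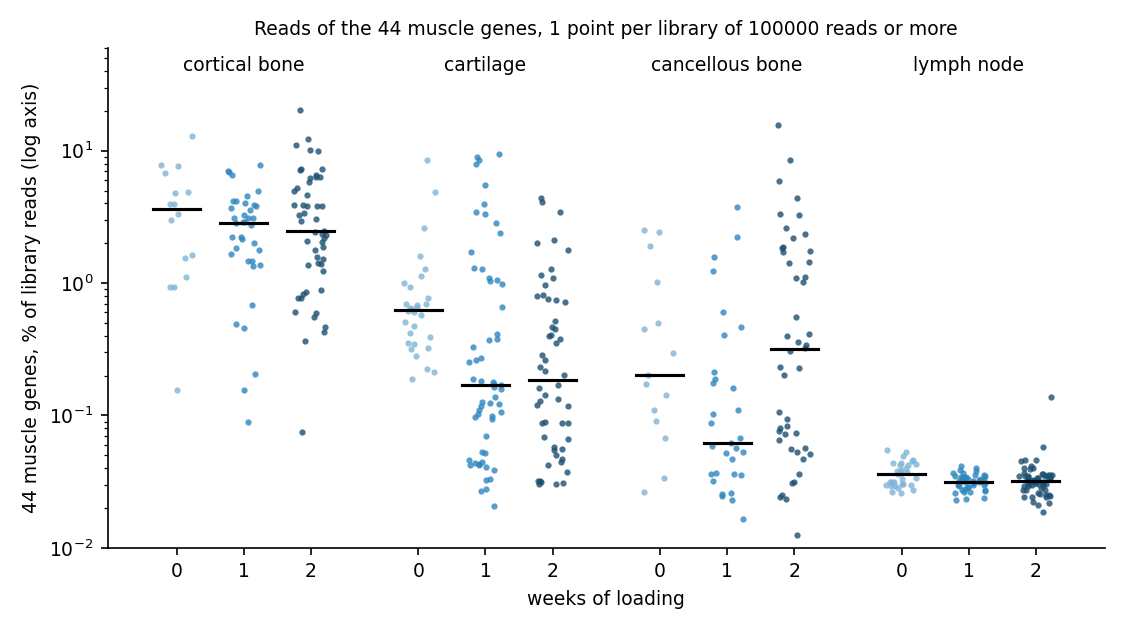
Share of each library's reads in the 44 muscle genes (percent, log axis) for cortical bone, cartilage, cancellous bone and lymph node at 0, 1 and 2 weeks; each point is 1 library of at least 100000 reads and each bar a median. Cortical bone has a median of 2.88% and lymph node 0.0322%, and libraries of bone and cartilage spread over more than a factor of 100.

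The order of tissues held for most single genes of the fast machinery. Ttn, titin, the elastic ruler of the thick filament, had a median of 4398 CPM (counts scaled to 1000000 reads per library) in cortical bone, 424 in cartilage, 255 in cancellous bone and 126 in lymph node. Myh4, the fast IIb myosin heavy chain, had medians of 3127, 361 and 167 CPM in cortical bone, cartilage and cancellous bone and was at 0 in 93 of the 134 lymph node libraries, where a count of 0 allowed 1.84 CPM at the median depth. Acta1, the skeletal actin of the thin filament, had medians of 1717, 208, 78.4 and 0 in the same order of tissues. Ckm, the creatine kinase that buffers ATP, had 493, 47.6, 25.5 and 0 CPM, and Pvalb, the calcium buffer parvalbumin of fast fibres, had 1005, 86.2, 46.9 and 0. The ranges of cortical bone, cartilage and cancellous bone overlapped for each of these genes.

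Most slow-fibre genes were at or near 0 in every tissue. Myh7, the slow myosin heavy chain, had a median of 0 in all 4 tissues and a highest value of 113 CPM, in cortical bone. Tnni1, slow troponin I, was at 0 in 104 of 143 cartilage libraries, 67 of 106 cortical libraries and 83 of 94 cancellous libraries, and Tnnc1 had medians of 1.11 in cortical bone, 0.569 in cartilage and 0 in cancellous bone. Among the reads of the 4 adult myosin heavy chains, in 264 libraries with at least 200 such reads, Myh4 made up a median of 88.8% in cartilage, 82% in cortical bone and 82.1% in cancellous bone. Myh1, the IIx chain, made up 8.91%, 13.7% and 13.2% in that order of tissues, Myh2, the IIa chain, 1.92%, 4.43% and 2.74%, and Myh7 had medians of 0. Myh1, Myh2 and Myh4 are near-identical neighbours on chromosome 11, so reads could be split between them in counting.

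In lymph node a few members kept measurable levels, with medians of 41 CPM for Eno3, the muscle enolase, 40.8 for Des, desmin of the intermediate filaments, 21.1 for Tpm2, beta-tropomyosin, 17.9 for Tnni2, fast troponin I, and 11.7 for Neb, nebulin of the thin filament. Myh1, Myh2 and Xirp2 were at 0 in 102, 109 and 111 of the 134 libraries. These levels varied little together: with group means removed, the correlation of a member with the mean of the other members had a median over members of 0.0875, 0.182 and 0.198 in the lymph node tables at 0, 1 and 2 weeks. In cartilage the same medians were 0.911, 0.943 and 0.863 over 30, 59 and 54 libraries, in cortical bone 0.947, 0.920 and 0.879 over 16, 38 and 52, and in cancellous bone 0.889, 0.919 and 0.938 over 15, 31 and 48. Points of 1 table share the authors' scaling, and libraries also differ in depth.

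In cartilage and bone the fast members thus varied together from library to library, and in cartilage slow members followed less closely. In cartilage Mylpf, the fast regulatory light chain, correlated with the other members at 0.95, 0.98 and 0.95 at 0, 1 and 2 weeks and Atp2a1, the fast SERCA pump, at 0.96, 0.98 and 0.95. Tnnc1 gave 0.16, 0.09 and -0.02, and Tnnt1, slow troponin T, gave 0.07, 0.18 and 0.00. In cartilage the median of Tnnc1 was 0.569 CPM, with 58 of 143 libraries at 0, and that of Tnnt1 was 8.2 CPM. The part of low counts in these correlations was not tested. The spread of the members was also wide: 38 of 43 tested members in cartilage at 1 week and 43 of 44 in cortical bone at 2 weeks had a residual SD above the 95th percentile of all genes. At 1 week in cartilage the median SD was 2.37 on the log2 scale for members and 0.821 for all genes.

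**Figure D2:**
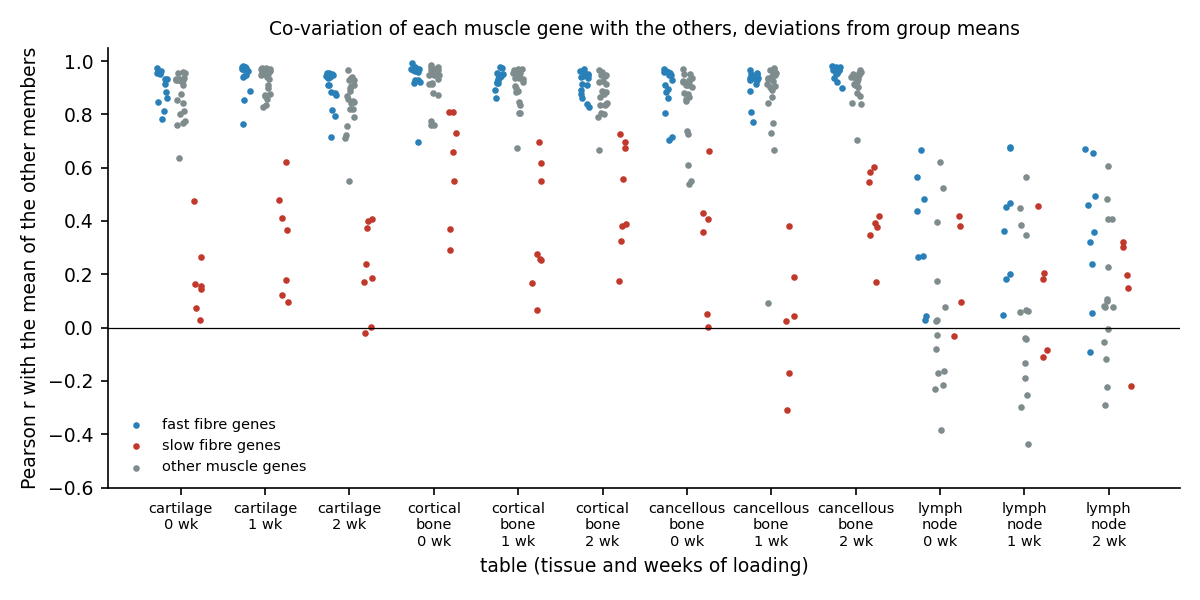
Correlation of each muscle gene with the mean of the other muscle genes across libraries, group means removed, in each table (horizontal axis: tables by tissue and week; vertical axis: Pearson r); fast-fibre genes in blue, slow-fibre genes in red, other members in grey. Fast genes lie near 0.9 in cartilage and bone, slow genes lie lower, and lymph node medians are between 0.0875 and 0.198.

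Among 8896 other genes whose log2 levels averaged 3 or more in each of the 3 cartilage tables, the 10 whose levels followed the members' mean most closely, ranked by their lowest correlation over the tables of 30, 59 and 54 libraries, were Cox6a2, Tpm1, Pgam2, Srl, Nexn, Klhl31, Myom2, Pfkm, Hrc and Ankrd23. Cox6a2, the striated-muscle subunit of cytochrome oxidase, gave 0.94, 0.92 and 0.87 at 0, 1 and 2 weeks, and Pgam2, the muscle phosphoglycerate mutase, gave 0.93, 0.92 and 0.85. Pfkm, the muscle phosphofructokinase, gave 0.95, 0.86 and 0.80. The 5 genes at the opposite end were Eri1, Tbc1d9, Tnfrsf13c, Rfc5 and Tmem123, with correlations between -0.39 and -0.25. Adipocyte markers that reached that mean level gave between -0.11 and 0.37, the highest being Plin4 of lipid droplets at 0.19, 0.24 and 0.37. Such smooth-muscle markers gave between -0.15 and 0.54, with Acta2 at 0.22, 0.04 and -0.07, Smtn at 0.37, 0.10 and 0.25, Lmod1 at 0.32 at 1 week and Synpo2 at 0.54 at 0 weeks, the last pair reaching that mean level at that time alone.

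Differences between groups were tested with limma on log2 of the normalised count plus 1, with Benjamini-Hochberg adjustment over all genes of a table. A fold change below is on that log2 scale with its standard error, and it understates the change of genes near 0. Shares of all genes called are those of the main limma fit. No such share is given for edgeR, the replicate block or fits without a library, so their counts of members have no background beside them. In 46 comparisons, members passed an adjusted p of 0.05 in 5, all in cartilage, and in 41 none did. The bone comparisons each called between 0 and 18 of all genes tested, so 0 called members there is no result particular to the muscle genes. Samples were not pooled per the design text, and each library came from 1 limb, so p-values measure the spread between animals and limbs as sampled here.

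The comparison with the most members called was in cartilage after 2 weeks of loading, where muscle genes were higher in loaded limbs of alendronate mice than in those of vehicle mice. Of the 44 members 32 were higher and 0 lower, with a median log2 fold change of 3.58 over all 44 against -0.18 over all genes, and 3.66% of all genes tested were called higher. The groups held 5 and 8 libraries. The members' share of reads was 0.285%, 2.01% and 4.10% at the lowest, median and highest alendronate library, against 0.0302%, 0.0669% and 0.262% in vehicle libraries, so the shares did not overlap. Every alendronate library was above every vehicle library for 13 members, and 3.04% of all genes showed that separation.

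Thick-filament genes were 10 of 12 higher. Ttn had normalised counts of 9440.4, 18000.1, 1756, 5649.8 and 3518 in alendronate loaded limbs, against 33.6, 116 and 307 at the lowest, median and highest vehicle library. Every alendronate library exceeded every vehicle library by more than a factor of 5, and the log2 fold change was 5.72 ± 0.81 (SE; limma adjusted p = 1.64e-05). Myh4 had 5088, 12929, 489.7, 3666 and 3007 in alendronate limbs, against 35.4, 79 and 488 in vehicle limbs. The lowest alendronate value, in replicate 3, lay just above the highest vehicle value, and the log2 fold change was 4.93 ± 0.95 (limma adjusted p = 0.000793). Myh1 gave 429, 888, 24.5, 532 and 307 in alendronate limbs and 0.806, 8.16 and 69.4 in vehicle limbs, with a fold change of 4.52 ± 0.93 (limma adjusted p = 0.0017), and here replicate 3 fell inside the vehicle range. Myh2 gave 35.4, 159, 0, 48.6 and 53.6 in alendronate limbs and 0, 2.08 and 4.82 in vehicle limbs (3.43 ± 1.04, limma adjusted p = 0.0309). Mybpc1 and Mybpc2, the slow and fast myosin-binding proteins C that brace the thick filament, changed by 5.02 ± 0.99 and 4.79 ± 0.80 (limma adjusted p = 0.00101 and 0.000149). Mybpc2 ran between 181 and 655 in alendronate limbs, against 3.54 and 37.4 in vehicle limbs, without overlap. Mylpf changed by 3.45 ± 0.84 (limma adjusted p = 0.00759). Myh7 was 0, 0, 0, 9.92 and 14.2 in alendronate limbs and 0 in all 8 vehicle limbs; it passed the test (limma adjusted p = 0.0473) on 2 libraries, and no fold is given against 0. The light chains of slow and cardiac muscle, Myl2 and Myl3, did not pass, at 0.30 ± 0.63 and 1.35 ± 0.77.

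Thin-filament genes were 6 of 9 higher, and the 3 that did not pass were the slow troponins. Acta1 had 1832, 3577, 389, 2549 and 1453 in alendronate loaded limbs, against 18.8, 76.4 and 421 in vehicle limbs. Only replicate 3 of the alendronate group fell inside the vehicle range, and the fold change was 4.27 ± 0.89 (limma adjusted p = 0.00184). Neb, the nebulin ruler of the thin filament, changed by 4.96 ± 0.91 (limma adjusted p = 0.000394), with 129.8 to 4004 in alendronate limbs and 7.67 to 153 in vehicle limbs. The fast troponin genes Tnnt3, Tnnc2 and Tnni2 changed by 4.85 ± 0.91, 4.10 ± 1.01 and 3.12 ± 0.91. Tpm2 had 1002, 1393, 286, 1039 and 780.2 in alendronate limbs, against 91.5, 136 and 301 in vehicle limbs, and its fold change of 2.38 ± 0.57 was smaller (limma adjusted p = 0.00612); it also kept the highest floor, with a lowest value of 29.6 CPM over all cartilage libraries. In contrast Tnnc1 had 0.956, 0, 0, 13.9 and 0 in alendronate limbs, against 0, 1.25 and 3.01 in vehicle limbs. These ranges overlapped, and its fold change was -0.06 ± 0.72 (limma adjusted p = 0.971). Tnnt1 gave -0.50 ± 0.62 and Tnni1 0.45 ± 0.51 (limma adjusted p = 0.676 and 0.638).

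**Figure D3:**
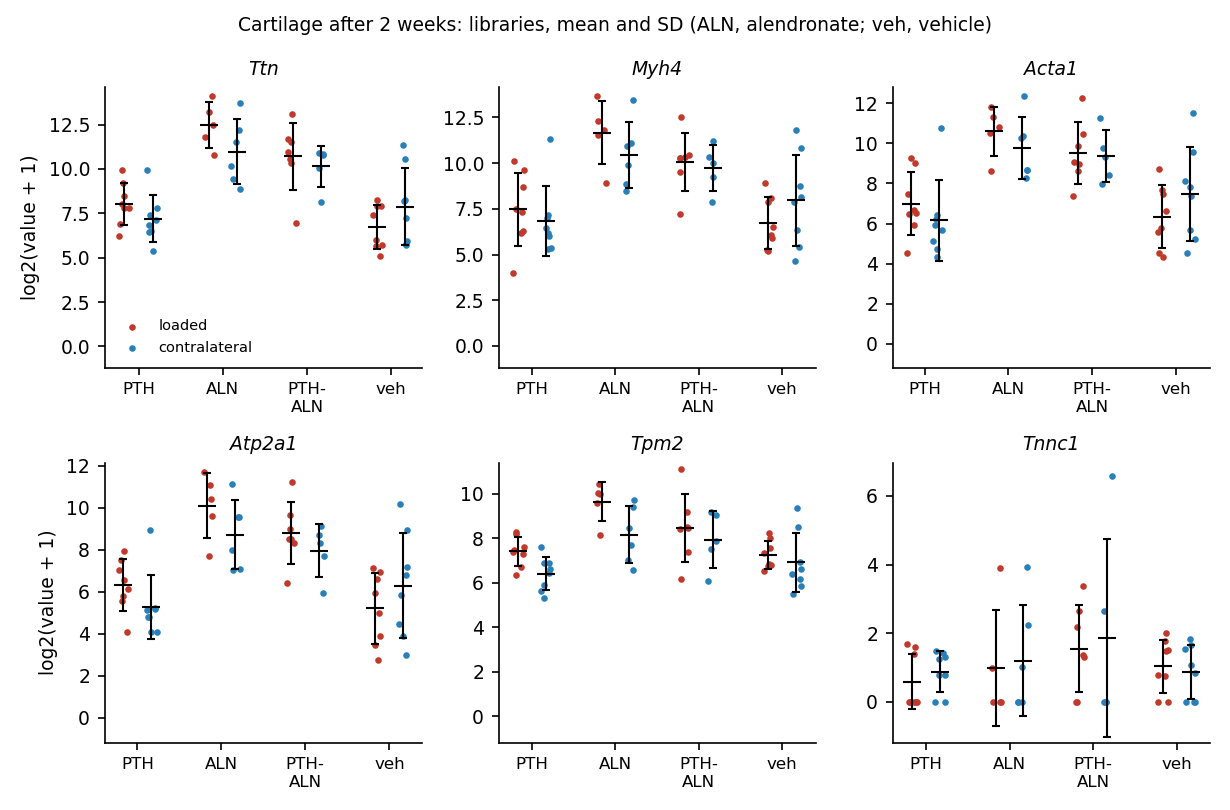
Levels as log2(normalised count + 1) of Ttn, Myh4, Acta1, Atp2a1, Tpm2 and Tnnc1 in cartilage after 2 weeks for PTH, alendronate, PTH-alendronate and vehicle mice; each point is 1 library, loaded limbs in red left of contralateral limbs in blue, with mean ± SD of the log values. In loaded limbs the normalised count of Ttn lies between 1756 and 18000.1 in alendronate mice and between 33.6 and 307 in vehicle mice, whereas Tnnc1 does not separate the groups.

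Of the Z-disc genes 7 of 11 were higher. Xirp2, an actin-binding Xin repeat protein, had 869, 1368, 90.6, 989.6 and 333 in alendronate loaded limbs, against 2.89, 11.6 and 85.2 in vehicle limbs. The groups did not overlap, and the fold change was 5.18 ± 0.86 (limma adjusted p = 0.000139). Ldb3, the PDZ-LIM protein of the Z disc, changed by 4.46 ± 0.93 with 72.5 to 218 in alendronate limbs and 0.605 to 24.7 in vehicle limbs (limma adjusted p = 0.00183). Des had 79.4, 165, 9.79, 129 and 66.2 in alendronate limbs, against 2.42, 8.28 and 32.3 in vehicle limbs, and passed narrowly (2.75 ± 0.90, limma adjusted p = 0.049). Actn3, the alpha-actinin of fast fibres, missed the threshold at 2.91 ± 1.02 (limma adjusted p = 0.0656), and Actn2, Xirp1 and the slow-fibre calsarcin gene Myoz2 gave 1.64 ± 0.93, 1.09 ± 0.61 and 0.30 ± 0.57.

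Calcium-handling genes were 5 of 7 higher and energy genes 4 of 5. Atp2a1 had 2141, 3332, 208, 1342 and 787 in alendronate loaded limbs, against 5.78, 45.0 and 139.5 in vehicle limbs. All alendronate libraries were above all vehicle libraries, and the fold change was 4.89 ± 0.87 (limma adjusted p = 0.000258). Pvalb changed by 4.55 ± 0.95, Trdn, the triadin that anchors calsequestrin to the ryanodine receptor, by 4.43 ± 0.93, and Ryr1, that receptor itself, by 4.25 ± 0.93 (limma adjusted p = 0.00188, 0.00199 and 0.00299). Cacna1s, the voltage sensor of the fibre membrane, and Casq2, the cardiac and slow-fibre calsequestrin, did not pass, at 1.99 ± 0.98 and 1.22 ± 0.63. Ckm had 862, 1649, 24.5, 605 and 469.7 in alendronate limbs, against 5.31, 25.1 and 129 in vehicle limbs (3.95 ± 0.97, limma adjusted p = 0.00814), with replicate 3 again inside the vehicle range. Mb, myoglobin, changed by 4.48 ± 0.99 and Pygm, muscle glycogen phosphorylase, by 3.46 ± 0.79, while Eno3 gave 2.22 ± 0.80 (limma adjusted p = 0.0741). Of 15 members listed as fast-fibre genes 14 passed, all but Actn3, and of 8 listed as slow-fibre genes Myh7 passed; Mybpc1, the slow protein C, passed too and is in neither list.

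The count of 32 ran between 26 and 34 when each library was left out in turn, and edgeR's quasi-likelihood test on the recovered reads called 34. At 2 weeks the animal codes of all alendronate and PTH-alendronate cartilage libraries carry a letter and those of all vehicle and PTH libraries do not, so alendronate and whatever the letter marks cannot be told apart. Alendronate loaded libraries were also shallower, with a median of 1423376 reads against 2243004 in vehicle loaded libraries, and their share of cartilage matrix genes was higher, at 1.49%, 2.38% and 2.79% against 0.359%, 0.598% and 1.32%; the part of either in the result was not tested. At 1 week, when codes in cartilage carried no letter, alendronate against vehicle in loaded limbs gave 0 called members with limma, where 0.00679% of all genes were called (0 members at an unadjusted p under 0.05, and 0 with edgeR), and a median log2 fold change of -0.25. The contralateral limbs at 1 week also gave 0 called members with limma, where 0.00679% of all genes were called (4 lower at an unadjusted p under 0.05, and 0 with edgeR), with 41 of 43 fold changes negative and a median of -1.48. That unadjusted threshold was passed by 4.98% of all genes in loaded limbs and 6.09% in contralateral limbs.

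In PTH-alendronate mice 16 of the 44 members were higher than in vehicle mice in loaded limbs at 2 weeks and 0 lower, with a median fold change of 2.57; 1.2% of all genes were called higher. The same 8 vehicle libraries served as for alendronate. Ttn had 125, 1982 and 8598 at the lowest, median and highest of 7 PTH-alendronate libraries, against 33.6, 116 and 307 in vehicle limbs. Here 6 of the 7 libraries were above all vehicle libraries and replicate 4 was not, and the fold change was 3.98 ± 0.74 (limma adjusted p = 0.00146). Neb, Mybpc1, Xirp2 and Atp2a1 changed by 4.04 ± 0.82, 4.22 ± 0.90, 3.67 ± 0.78 and 3.59 ± 0.79 (limma adjusted p = 0.00451, 0.00564, 0.00559 and 0.00732), and Mybpc2 and Tnnt3 by 3.5 ± 0.73 and 3.5 ± 0.83. Myh4 had 146, 1250.5 and 6004 in PTH-alendronate limbs, against 35.4, 79 and 488 in vehicle limbs (3.36 ± 0.86, limma adjusted p = 0.0234). Acta1 had 163, 541 and 4853 in PTH-alendronate limbs, against 18.8, 76.4 and 421 (3.18 ± 0.81, limma adjusted p = 0.0223). Ckm, Tnnc2 and Mylpf did not pass, at 2.70 ± 0.88, 2.77 ± 0.92 and 2.61 ± 0.76 (limma adjusted p = 0.09, 0.095 and 0.0506). The count was 7 without replicate 7 of the PTH-alendronate loaded limbs, its highest library by muscle share, and 9 without replicate 6; edgeR called 24. PTH alone against vehicle gave 0 called members in loaded limbs with limma, where 0% of all genes were called (1 member lower at an unadjusted p under 0.05, and 0 with edgeR), with a median of 0.59. Over all genes, 3.15% passed that unadjusted threshold.

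In the limbs that were not loaded, alendronate mice again had higher muscle genes than vehicle mice at 2 weeks, in fewer genes. The test called 5 members higher and 0 lower, Ttn, Xirp2, Mybpc1, Myh1 and Neb, all 5 among the 32 called in the loaded limbs of mice of the same groups, with a median over members of 1.86; 1.45% of all genes were called higher. Ttn had 469.6, 2049.5 and 13326 at the lowest, median and highest of 6 alendronate libraries, against 50.8, 220.1 and 2600.0 of 8 vehicle libraries. The ranges overlapped through vehicle replicates 2 and 7, and the fold change was 3.11 ± 0.77 (limma adjusted p = 0.0139). Xirp2 changed by 2.87 ± 0.81, Mybpc1 by 3.26 ± 0.94, Myh1 by 2.92 ± 0.88 and Neb by 2.82 ± 0.86 (limma adjusted p = 0.0335, 0.0363, 0.048 and 0.0498). The call rested on single libraries: 13 members passed without vehicle contralateral replicate 2 and 8 without replicate 7, while 2 passed without vehicle contralateral replicate 1 and 1 without any of vehicle contralateral replicates 3, 4, 5, 6 and 8 or alendronate contralateral replicates 2 and 3. Without alendronate contralateral replicate 1 the 1 member called was lower. PTH-alendronate against vehicle gave 0 called members in contralateral limbs with limma, where 5.09% of all genes were called in either direction (13 higher and 1 lower at an unadjusted p under 0.05, and 0 with edgeR). In that comparison 21.6% of all genes passed the unadjusted threshold. There Ttn had 1070.1, 1866, 1887, 1747 and 284 in PTH-alendronate limbs, against 50.8, 220.1 and 2600.0 in vehicle limbs (2.27 ± 0.81, limma adjusted p = 0.0816).

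Within mice, loaded and contralateral cartilage at 2 weeks did not differ in a called member under any treatment with limma, against 3.59% of all genes called in PTH mice, 3.93% in alendronate mice, 3.82% in PTH-alendronate mice and 1.14% in vehicle mice. Members at an unadjusted p under 0.05 numbered 3, 2, 0 and 1 in these mice in that order, and edgeR called 1 member lower in vehicle mice and 0 in the others. Median fold changes were 0.67, 0.83, 0.55 and -0.92 in the same order. Of all genes, 16.3%, 19.3%, 20.9% and 10.1% had an unadjusted p under 0.05, again in that order. The member of smallest p in PTH mice was Tnnt1, with 0, 3.95 and 12.5 in loaded limbs and 4.28, 13.6 and 23.6 in contralateral limbs (-1.70 ± 0.55, limma adjusted p = 0.0654), and the fast gene Myh1 gave 1.95 ± 0.81 (limma adjusted p = 0.19). With replicate number as a block, which at 1 and 2 weeks in cartilage is the animal, 1 member was called higher in PTH mice. For the difference in loading response from vehicle mice at 2 weeks, 0 members were called with limma or edgeR in any treatment, against 0% of all genes for PTH, 0.00669% for alendronate and 0% for PTH-alendronate. The median difference was 1.57 for PTH, 1.77 for alendronate and 1.32 for PTH-alendronate, with 3, 6 and 1 members at an unadjusted p under 0.05. Shares of all genes at that unadjusted p were 3.28%, 5.31% and 6.86%.

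After 1 week of loading, members that passed were lower in loaded than in contralateral cartilage of vehicle mice. All 43 members tested had a negative fold change, with a median of -3.32 against -0.04 over all genes, and 3 passed the test; 0.299% of all genes were called lower. Myh7 was too low to be tested. The members' share of reads was 0.0206%, 0.0422% and 2.83% at the lowest, median and highest of 7 loaded limbs, against 0.0464%, 3.45% and 8.94% of 7 contralateral limbs, and the loaded limb was lower in 6 of 7 mice.

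**Figure D4:**
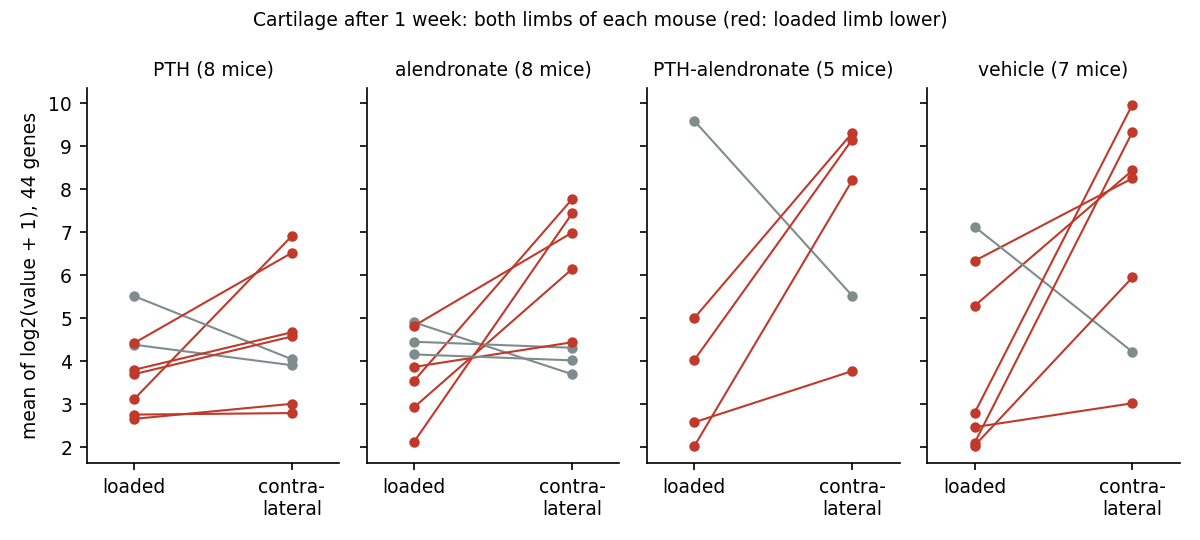
Mean log2 level of the muscle genes in loaded and contralateral cartilage of the same mouse after 1 week, for PTH, alendronate, PTH-alendronate and vehicle mice; each line joins both limbs of 1 mouse. The loaded limb is lower in 6 of 8 PTH, 5 of 8 alendronate, 4 of 5 PTH-alendronate and 6 of 7 vehicle mice.

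Myh2, the IIa myosin, did not overlap between the limbs, by a narrow margin at low counts. It had 3.28, 1.02, 0, 0, 0.764, 2.21 and 0 in loaded limbs of vehicle mice, against 350.0, 343, 8.26, 4.41, 134, 32.9 and 1672 in their contralateral limbs, in the order of replicates 1 to 7. Every contralateral value exceeded every loaded value, and the fold change was -5.68 ± 1.21 (limma adjusted p = 0.00409). The lowest contralateral value, 4.41 in replicate 4, lay just above the highest loaded value, 3.28 in replicate 1. That loaded value stands for 0.424% of 944 myosin reads. The share of all genes that separated in this way is not given. Ckmt2, the mitochondrial creatine kinase, had 0, 0.88 and 11.8 in loaded limbs and 5.51, 207 and 843 in contralateral limbs (-5.02 ± 1.13, limma adjusted p = 0.00794), and Myh1 had 2.21, 11.8 and 135 against 9.91, 611 and 3498 (-4.60 ± 1.16, limma adjusted p = 0.024). Both overlapped between limbs. Myh4 had 636, 3125, 8597, 37.8, 13.8, 12.5 and 48.8 in loaded limbs, against 9669.8, 8931, 256, 49.6, 30139, 1592 and 23435 in contralateral limbs. It was higher in the loaded limb of the mouse numbered 3 and lower in those of the other 6, and did not pass (-3.93 ± 1.27, limma adjusted p = 0.124). Ttn, Acta1, Atp2a1, Pvalb and Mylpf likewise gave -3.36 ± 1.13, -3.72 ± 1.17, -3.73 ± 1.18, -3.70 ± 1.24 and -3.55 ± 1.15 without passing (limma adjusted p between 0.111 and 0.141). Tnnc1 had 0, 0.764 and 6.5 in loaded limbs and 0, 2.75 and 14.2 in contralateral limbs (-0.86 ± 0.66).

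In 3 loaded limbs of the vehicle mice at 1 week there were enough myosin reads to give their mix. In loaded replicates 2 and 3 Myh4 made up 98.8% and 99.9% of myosin reads, with Myh1 at 1.13% and 0.137%. In 6 contralateral limbs with enough reads Myh4 made up between 82.3% and 90.4% and Myh1 between 6.18% and 12.7%, and loaded replicate 1, at 82.1% Myh4, lay near them. This mix was not tested.

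Single libraries decided how many members passed in vehicle mice. Without contralateral replicate 4, the lowest contralateral library, 23 members were lower, without loaded replicate 3, the highest loaded library, 21, without contralateral replicate 3, 9, and without loaded replicate 2, 5. Adipocyte markers fell in the same loaded limbs, with 3 of 10 called lower (Plin4 -3.25 ± 0.69, Cfd -3.09 ± 0.76, Cidec -3.14 ± 0.82) and a summed share of 0.0273% to 0.0529% in loaded limbs, against 0.0521% to 0.426% in contralateral limbs. Cartilage matrix genes had 1 of 9 higher, Col2a1 (1.92 ± 0.38), and tendon genes 1 of 5, Fmod (1.56 ± 0.37), where 1% of all genes were called higher. Their part in the muscle result was not tested. Other muscle-fibre genes outside the 44 were 0 of 28 called, with a median of -2.38, and Vgll2, a cofactor of muscle transcription, was called lower (-3.76 ± 0.91) as 1 of 9 tested myogenic regulators.

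In PTH-alendronate mice at 1 week, 10 of 43 members were lower in loaded cartilage and 0 higher, with a median of -3.21; 3.24% of all genes were called lower. Ckmt2 had 0, 0 and 230.0 at the lowest, median and highest of 7 loaded limbs, against 1.49, 186 and 558 of 6 contralateral limbs (-4.91 ± 1.19, limma adjusted p = 0.00374). Eno3 had 11.7, 23.0 and 1758 in loaded limbs and 69.5, 727 and 2607 in contralateral limbs (-3.44 ± 0.93, limma adjusted p = 0.00966), and Mylpf had 5.47, 56.2 and 5724 against 44.8, 1715 and 6882 (-3.99 ± 1.2, limma adjusted p = 0.0224). In each case the limbs overlapped through loaded replicate 1, whose muscle share was 7.90% where the next loaded limb had 0.331%. Myoz1, the calsarcin of fast fibres, Pvalb, Mylk2, the skeletal myosin light chain kinase, Ldb3, Actn2, Mybpc2 and Tnnt3 passed with fold changes between -4.15 and -3.34. Of the 12 members called lower in PTH-alendronate or vehicle mice, Ckmt2 was called in both.

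The count of 10 depended strongly on its libraries and its test. It was 36 without loaded replicate 1, 29 without contralateral replicate 3, 24 without contralateral replicate 1, 3 without loaded replicate 5 or contralateral replicate 5, and 2 without any of loaded replicates 3 and 7 and contralateral replicates 2, 4 and 7. With the animal as a fixed block in the 5 complete pairs it was 0, and with edgeR 0. Adipocyte genes fell here too, 4 of 10, including Cfd (-3.07 ± 0.79) and Plin4 (-2.76 ± 0.73), while 5 of 9 cartilage matrix genes rose, including Col2a1 (2.90 ± 0.40) and Acan (2.51 ± 0.46), and 2 of 5 tendon genes, Fmod (2.56 ± 0.39) and Scx (3.13 ± 0.72), where 7.13% of all genes were called higher. The summed cartilage share was 0.563%, 1.07% and 2.71% in loaded limbs, against 0.179%, 0.391% and 0.995% in contralateral limbs, and its part in the muscle result was not tested. Of 28 other muscle-fibre genes 7 fell, among them Mylk4 (-4.55 ± 1.2), Cox6a2 (-3.70 ± 1.00), Apobec2 (-3.33 ± 0.95) and Mypn (-3.72 ± 1.08).

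Alendronate and PTH mice gave 0 called members between limbs at 1 week with limma, where 6.42% and 2.99% of all genes were called in either direction. Their median fold changes were -1.96 and -0.80, 18 and 1 members were lower at an unadjusted p under 0.05, and edgeR called 4 lower and 0. Among all genes, 17.6% and 16.7% had an unadjusted p under 0.05 in either direction. With the animal as a fixed block, 7 members were called lower in alendronate mice. In alendronate mice Ckmt2 had 0, 1.71 and 8.54 in loaded limbs and 0, 21.5 and 162 in contralateral limbs (-3.05 ± 1.06, limma adjusted p = 0.0714), and Eno3 had 14.7, 36.2 and 64.4 against 50.2, 204 and 802 (-2.28 ± 0.83, limma adjusted p = 0.0881). The contralateral limbs of PTH mice, compared with the vehicle contralateral limbs used above, had a muscle share of 0.0422%, 0.152% and 1.31%, against 0.0464%, 3.45% and 8.94% in vehicle mice, yet 0 members were called with limma, where 0.0475% of all genes were called (34 of 43 lower at an unadjusted p under 0.05, and 1 lower with edgeR). Tpm2 gave the smallest p, with 100.2, 144 and 780.3 in PTH contralateral limbs, against 138, 1679 and 3591 in vehicle contralateral limbs (-2.19 ± 0.64, limma adjusted p = 0.118). In this comparison 12.7% of all genes had an unadjusted p under 0.05.

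**Figure D5:**
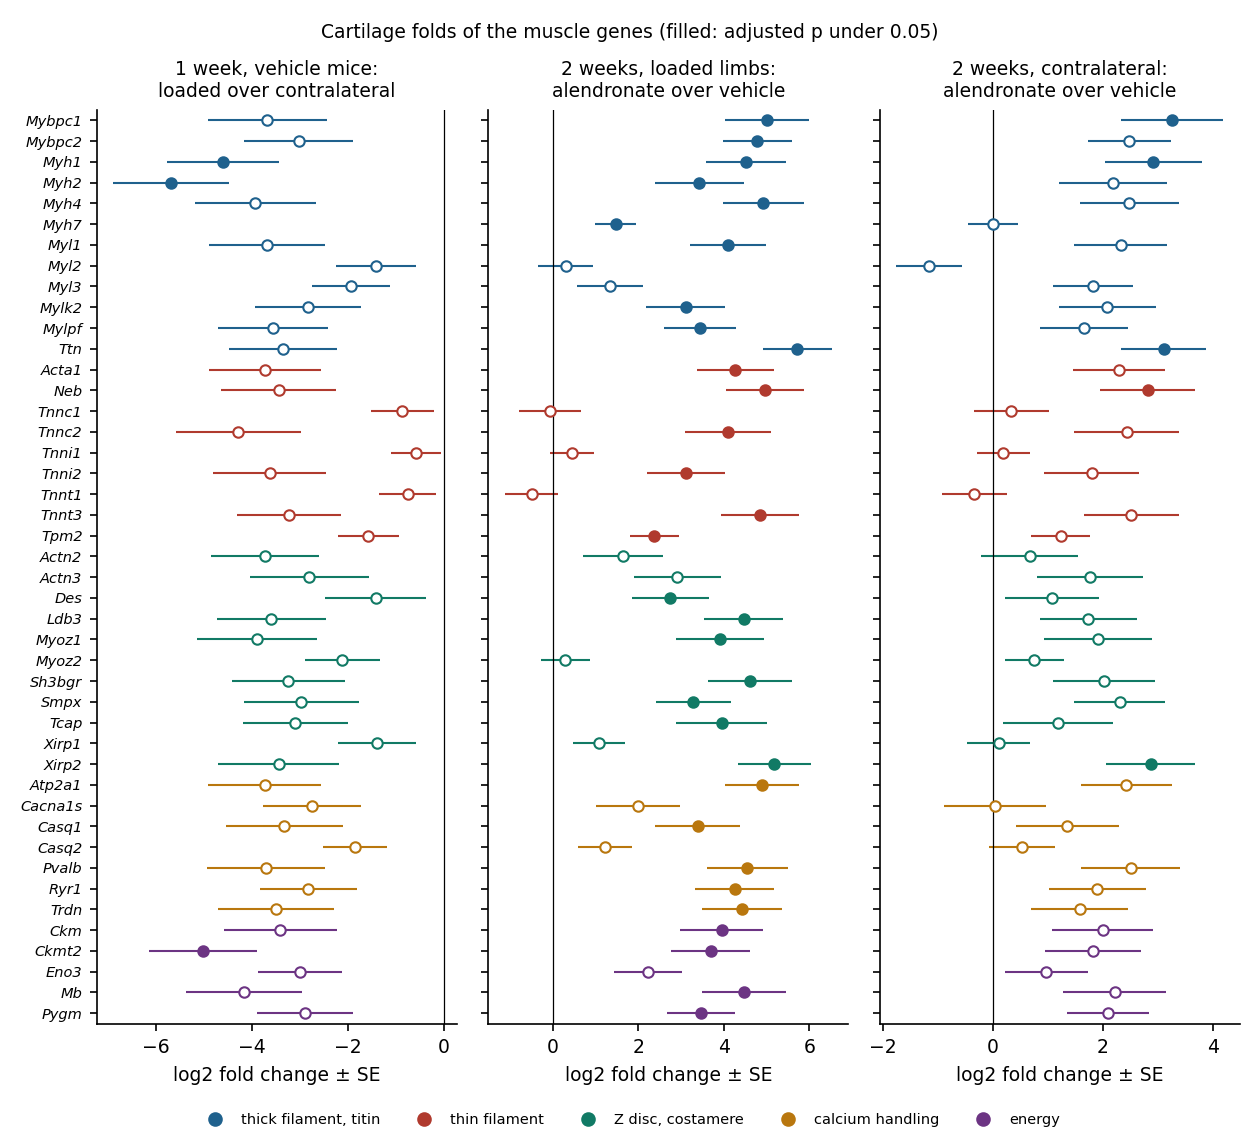
Log2 fold change ± SE of each muscle gene, grouped by role, for loaded over contralateral cartilage of vehicle mice at 1 week, alendronate over vehicle loaded cartilage at 2 weeks, and alendronate over vehicle contralateral cartilage at 2 weeks; filled points have a limma adjusted p under 0.05 (3, 32 and 5 genes). Points lie left of 0 in the first panel and mostly right of 0 in the others, and slow-fibre genes such as Tnnc1 and Tnnt1 lie nearer 0; the Myh7 point at 2 weeks in loaded limbs is a fitted value against libraries at 0 and no bound.

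Before loading, PTH pretreatment called 0 members in cartilage with limma, where 0.276% of all genes were called (0 members at an unadjusted p under 0.05, and 1 lower with edgeR), and the median was 0.24. Nor was a member called in lymph node, where 0.677% of all genes were called (1 higher and 1 lower at an unadjusted p under 0.05, and 0 with edgeR). That unadjusted threshold was passed by 14.6% of all genes in cartilage and 16.0% in lymph node. In cancellous bone 0 of 42 members and 0% of all genes were called with limma, although 29 members were lower at an unadjusted p under 0.05 and the median was -2.45. Over all genes, 5.72% had such an unadjusted p in cancellous bone. Myh2 had 0, 1.11, 16.3 and 68.1 in left and 1.96, 11.9, 11.3 and 0.966 in right limbs of PTH mice, against 65.7, 299, 144 and 259 in left and 137, 5.68 and 399 in right limbs of vehicle mice. Apart from vehicle right replicate 3, the vehicle values lay above all PTH values but that of PTH left replicate 7, and the fold change was -4.16 ± 0.85 (limma adjusted p = 0.262). Pygm and Myl1, the fast essential light chain, gave -2.49 ± 0.53 and -3.35 ± 0.71. The count was 5 lower with edgeR and 4 without vehicle right replicate 3. Cortical bone before loading gave 0 called of 43 members with limma, where 1 of 14232 genes was called. Its median over members was 0.10, with 25 fold changes positive, 18 negative and 0 members at an unadjusted p under 0.05. That unadjusted threshold was passed by 2.71% of all genes in cortical bone.

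In bone after loading, no member passed with limma in any comparison, and few genes of any kind did. At 2 weeks, loading in vehicle mice called 0 of 15189 genes in cortical and 0 of 14895 in cancellous bone. PTH against vehicle in loaded limbs called 1 gene lower in cortical and 1 higher in cancellous bone. At 1 week, loading in cancellous bone of vehicle mice called 1 of 14315 genes. Cancellous bone of alendronate loaded limbs at 2 weeks held muscle shares of 0.0654% to 15.7% with a median of 3.28%, against 0.025% to 2.37% with a median of 1.02% in vehicle loaded limbs. Ttn had 5238, 69685, 22872, 159 and 5660.2 in alendronate limbs, against 6.01, 1066 and 8571 in vehicle limbs, and the ranges overlapped. The median over members was 2.76, 16 were higher at an unadjusted p under 0.05, 0 passed with limma or edgeR, and 0% of all genes passed with limma. Xirp1, another Xin repeat gene, gave the smallest p, with 1.32, 21.9, 3.01, 0 and 17.5 in alendronate limbs against 0, 0 and 1.47 in vehicle limbs (2.37 ± 0.65, limma adjusted p = 0.285). PTH-alendronate against vehicle in the same tissue gave a median of -0.44 and 0 called members with limma or edgeR, where 0.121% of all genes were called with limma, and 1 member was higher at an unadjusted p under 0.05. Of all genes, 7.26% had such an unadjusted p for alendronate and 13.6% for PTH-alendronate. In cortical and cancellous bone at 2 weeks all alendronate and PTH-alendronate codes begin with A or B. Vehicle and PTH codes there begin with C or D or carry no letter. The covariate separates only codes with and without a letter, so alendronate and whatever these letters mark cannot be told apart in bone either.

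Cortical bone of alendronate loaded limbs at 2 weeks had a median over members of 1.38, with 0 called with limma against 0.00658% of all genes, 11 higher at an unadjusted p under 0.05 and 10 higher with edgeR. Among all genes, 15.2% had an unadjusted p under 0.05, and the share called by edgeR is not given. Myh4 had 20376, 4181, 60363, 5716 and 396 in alendronate limbs, against 1556, 3891 and 14750.0 in vehicle limbs, so the alendronate group held both the highest and the lowest library (1.15 ± 0.91, limma adjusted p = 0.552). Xirp1 gave 2.34 ± 0.79 (limma adjusted p = 0.191) and Actn2 2.64 ± 0.92 (limma adjusted p = 0.203). PTH-alendronate limbs gave a median of 1.45 and 0 called members with limma, where 0% of all genes were called (8 higher at an unadjusted p under 0.05, and 1 higher with edgeR), and Actn2 had 76.9, 51.3, 42.4 and 489.7 in PTH-alendronate limbs against 0, 28.2 and 221 in vehicle limbs (2.84 ± 0.98, limma adjusted p = 0.224). Here 14.2% of all genes had an unadjusted p under 0.05. At 1 week in cortical bone the loaded limbs of vehicle mice had a median fold change of 1.42, where cartilage had -3.32, 13 members higher at an unadjusted p under 0.05, and 0 members and 0% of all genes called with limma, or 0 members with edgeR. The unadjusted threshold was passed by 6.53% of all genes in cortical bone. Tnni2 had 1194, 1735, 435 and 1576 in loaded limbs, against 41.4, 288 and 505 in contralateral limbs (2.36 ± 0.71, limma adjusted p = 0.607). Loaded replicate 3 of these vehicle mice held only 14390 reads and was kept in this fit. Whether the loading response differed between cortical bone and cartilage was not tested.

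In the alendronate comparison of loaded cartilage at 2 weeks, 17 of 27 tested fibre genes outside the 44 were higher, with a median of 2.91, among them Lmod3, a leiomodin that builds thin filaments (4.43 ± 0.70), Pgam2 (4.36 ± 0.96), and Jph1 and Jph2, the junctophilins that tie the surface membrane to the calcium store (3.18 ± 0.62 and 3.47 ± 0.72). Actc1, cardiac actin, was the 1 of 6 embryonic or cardiac genes that rose (3.79 ± 0.81), and Mef2a was the 1 of 8 myogenic regulators (2.04 ± 0.63). Neuromuscular junction genes had 0 of 6 called, adipocyte genes 0 of 10, tendon genes 0 of 5 and lymphocyte genes 0 of 9. Among smooth-muscle genes 1 of 9 rose, Tagln (3.34 ± 0.84), and 2 of 9 cartilage genes rose, Comp (2.56 ± 0.55) and Prg4 (2.46 ± 0.64). In the other direction, in which 3.54% of all genes were called lower, 2 of 14 respiratory chain genes fell, Cox4i1 (-1.05 ± 0.26) and Ndufa9 (-2.06 ± 0.52), and 1 of 8 osteoblast genes, Bglap (-3.02 ± 0.85).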

How the data were processed

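Deposited values were normalised read counts per gene from Truseq 3′ libraries, handled here as a signal that the authors had scaled per table; per the submitters' processing notes Trimmomatic 0.39, STAR, edgeR and mm10 were used. Whole reads were recovered from these values within 0.01 for 100% of entries and gave depths, shares and CPM. The 27 entries that name no gene, at most 0.295% of a library, were left out, and 0 columns were left unused.

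After adding 1 and taking log2, each table was fitted on its own by limma 3.58.1 (R 4.3.3), letting the variance follow the mean, over genes at 1 CPM or more in as many libraries as the smallest group, and with the animal as a correlated block. Limb at 0 weeks and code series (with or without a letter) in bone after loading were covariates, and the latter does not separate 1 letter from another. The threshold was a Benjamini-Hochberg adjusted p of 0.05 over all genes. Libraries under 100000 reads were kept in the main fit. Alternatives were edgeR 4.0.16, other pseudocounts, filters and scalings, a replicate block and single libraries left out; 6 contralateral comparisons and part of the single-library refits were added after seeing the data. The fitting steps were tested on simulated data. Tables, shares and promoter matches were computed with Python 3.11.15 and pandas 2.3.3.

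In cartilage the loaded and contralateral limbs with the same replicate number came from 1 animal in 28 of 28 pairs at 1 week and 25 of 25 at 2 weeks, as read from the codes in the titles; between treatments equal numbers mark different mice. Every member could be named. Values in full were kept for 14 members chosen to cover each role, for up to 10 called members of smallest p in a comparison, for the 3 of smallest p where none was called, for the 10 most alike and 5 most opposite genes, and for up to 4 genes of each companion list. The members, lists and tests were chosen with earlier results of these data known. The 95% Wilson intervals on single shares and the floors of 3 reads cover counting error only.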

Additional observations from a re-analysis of the deposited data

Results flagged for a closer look

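In 6 of 78 groups of 4 to 10 libraries, 1 library's mean log2 level of the muscle genes lay far from the others of its group; chance alone flags about 1 in 20 groups. In cartilage, PTH-alendronate loaded replicate 1 at 1 week had a mean of 9.59 with the next at 5.01, and its muscle share was 7.90% of reads (95% Wilson interval 7.86% to 7.94%). PTH-alendronate contralateral replicate 7 at 2 weeks was the lowest of its group at 3.69, with the next at 5.15. PTH contralateral replicate 2 at 2 weeks had 5.81 with the next at 3.12, and a share of 0.965% (0.951% to 0.979%). The vehicle right limb of replicate 15 at 0 weeks had 8.03 with the next at 4.94, and a share of 8.57% (8.51% to 8.62%) where the next had 0.775%. In lymph node, alendronate loaded replicate 1 at 1 week had 2.43 with the next at 1.87, and vehicle contralateral replicate 5 at 2 weeks had 3.52 with the next at 1.63 at a share of 0.058% (0.0549% to 0.0613%).

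In bone at 1 week the limbs of all mice of 1 treatment differed in the opposite direction from those of all vehicle mice, in mean log2 level of the muscle genes in the loaded minus the contralateral limb. In cancellous bone the median difference was -0.673 in PTH mice, lower in 3 of 3, and 1.42 in vehicle mice, lower in 0 of 2. The libraries of vehicle replicate 4, 1 of these 2 mice, held 26492 reads in the loaded and 23485 in the contralateral limb, with muscle shares of 2.37% and 2.02%; its difference was 2.08, against 0.758 in the other mouse. In cortical bone it was -0.869 in alendronate mice, lower in 4 of 4, and 1.58 in vehicle mice, lower in 0 of 3. The loaded limb of vehicle replicate 3 held 14390 reads and its pair differed by 0.773, against 3.59 and 1.58 in the others. These pairs come from the animal codes in the sample titles, not from replicate numbers. By those codes 1 other alendronate animal had a second cortical library labelled loaded, and it is in none of the 4 pairs. Of that animal, loaded replicate 2 carries a code in the place held by contralateral cortical libraries. It was the 1 of 364 codes without a letter off its limb's place, and it was used as labelled. Neither difference between treatments was tested.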

How the results depend on the processing

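Of 306 alternative fits, 281 kept the count of members called within 1.5 times, 25 moved it and 0 reversed its direction; of 198 fits without 1 library, 162 kept it, 35 moved it and 1 reversed it. The cause was not tested for any of them. In 41 of the 46 comparisons the main fit called 0 members, and a count that stayed at 0 was scored as kept. These totals therefore say little about the 5 comparisons with calls, whose counts are given below. The counts below are of members alone, without the share of all genes called by the same fit.

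With edgeR the count of members called was 1 for PTH against vehicle in cartilage at 0 weeks and 5 in cancellous bone at 0 weeks, 4 for loading in alendronate mice and 0 in PTH-alendronate mice in cartilage at 1 week, and 1 for PTH against vehicle in contralateral cartilage at 1 week. At 2 weeks edgeR gave 1 for loading in vehicle mice and 3 for alendronate against vehicle in contralateral limbs of cartilage. In cortical bone at 2 weeks it gave 2 for loading in vehicle mice, 2 for PTH, 10 for alendronate and 1 for PTH-alendronate against vehicle, and in lymph node at 2 weeks 1 for loading.

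With a replicate block, the limbs of the same cartilage animals gave 7 members for loading in alendronate mice and 0 in PTH-alendronate mice at 1 week, and 1 in PTH mice at 2 weeks. Between treatments the samples share only a number: the block gave 9 members for PTH in cancellous bone at 0 weeks, and in cartilage at 2 weeks 0 for alendronate loaded limbs, 2 for PTH-alendronate loaded limbs and 0 for alendronate contralateral limbs. The block changed no other call. Left against right limbs at 0 weeks, which carry different numbers, and differences in loading response were fitted with the animal as a correlated block, without the replicate number.

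A pseudocount of 0.25 gave 1 member for loading in PTH mice and 3 for alendronate in contralateral cartilage at 2 weeks. Without a filter, PTH-alendronate loading at 1 week gave 6 and alendronate contralateral limbs 3, and scaling by library total gave 3 for the last. Without libraries under 100000 reads, loading in PTH mice at 2 weeks gave 1.

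Without single libraries the counts ran between 2 and 23 for loading in vehicle mice and 2 and 36 in PTH-alendronate mice at 1 week in cartilage. At 2 weeks they ran between 7 and 24 for PTH-alendronate loaded limbs, 1 and 13 for alendronate contralateral limbs, where the 1 member called without alendronate contralateral replicate 1 was lower, 0 and 2 for PTH-alendronate contralateral limbs and 0 and 1 for loading in alendronate mice. Elsewhere they ran between 0 and 4 for PTH in cancellous bone at 0 weeks, 0 and 1 for alendronate in cancellous bone at 2 weeks, and 0 and 1 for loading in lymph node at 1 week. In the shallowest bone libraries of at least 100000 reads a count of 0 allowed up to 23.5 CPM in cortical and 8.99 CPM in cancellous bone.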
